A study of Mus musculus with 6 samples.

Results

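Mitochondrial ribosomal protein mRNAs were followed in non-polysomal (NP) and polysomal (P) RNA of oocytes from aged female (AF) mice. They were chosen by symbol, as every gene named *Mrpl* or *Mrps* followed by a number, which gave 76 of the 25899 genes in the table, 47 *Mrpl* (large subunit) and 29 *Mrps* (small subunit). Mitoribosomes are the ribosomes of the mitochondrial matrix. They are built from rRNA made in the mitochondrion and from proteins that are encoded in the nucleus, translated on cytosolic ribosomes and imported, and they translate the respiratory chain subunits that mitochondrial DNA encodes. The fully grown oocyte is rich in mitochondria and, being transcriptionally silent, draws these proteins from stored maternal mRNA, so the levels of an mRNA in NP and P describe its place in the RNA outside and on polysomes at lysis.

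The 6 libraries were 3 NP and 3 P (replicates 1 to 3 of each), each from 200 denuded oocytes. The labels call them NEBD oocytes, with the nuclear envelope broken down, of CD1 mice aged 58 weeks. The paper names the strain as ICR and gives a slightly lower age. Oocytes of both fractions were cultured for 180 min after release from IBMX, which holds them at the germinal vesicle stage, and received cycloheximide (0.1 mg/ml), which holds ribosomes on the mRNA. Lysates were separated on sucrose gradients into 10 fractions, which were pooled as NP (free mRNA and mRNA on monosomes) or P. The libraries of young females were not analysed here, so ages were not compared. No source used here says how many females stood behind each sample, and p-values measure the spread between these libraries.

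Depth differed between the fractions. Estimated from the steps of low FPKM values, it lay between 1237799 and 18096676 reads in NP and between 163822 and 1549317 reads in P, with P replicate 1 the shallowest. For an mRNA of 1 kb, 3 reads were worth 0.166 to 2.42 FPKM in NP and 1.94 to 18.3 FPKM in P, a floor that allows for counting error alone, because reads of amplified cDNA do not stand for separate molecules. Only 56.2% to 62.6% of the low values came out as whole reads, so these depths are estimates. The 12 oocyte markers had means above 1 FPKM in both fractions, whereas 7 of 12 granulosa markers and all 8 blood markers in the table were listed at 0 throughout. *Cyp19a1*, the granulosa aromatase, was listed at 7.15, 22.5 and 104 FPKM in NP and at 15.4, 0 and 0 FPKM in P, and the summed granulosa markers lay between 7.85 and 104 FPKM in NP and between 0.152 and 16.5 FPKM in P. Their part in the results was not tested.

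The start of the coding sequence is where the cytosolic ribosome begins on these mRNAs, and it is shown for the 6 mRNAs that differed between P and NP and for the *Mrps18* paralogs, whose ratios differed widely. The start codon is in capitals, with 12 bases before it and 9 after, from GENCODE M21 transcripts on GRCm38.
Mrpl14: tcttgggatcccATGgccgccctt
Mrpl55: taagaaaaaacaATGcctttggcc
Mrpl40: gcgtgaaaaactATGgctaccggg
Mrps30: cggcgggcgaaaATGgcggcggcc
Mrpl54: ccggccagcgtcATGgcggccgcc
Mrps18a: gtgcgttccaagATGgcggccctc
Mrps18b: gtgtgcgtcaagATGgctgccccc
Mrps18c: gggcggagaaccATGgccgctctg
A purine at the third base before the start codon and a G right after it are the strongest parts of the context that ribosomes favour. The purine was present in 72 of the 76 mRNAs (94.7%), against 85.9% of 8740 tested genes with an annotated start. The G was present in 53 of 76 (69.7%, against 52.5%). Of the 6 mRNAs that differed, 5 had the purine and 5 the G. *Mrpl54* has the purine and the G, *Mrpl14* has the G but a pyrimidine at the other place, and *Mrpl55* has a C after the start codon. The 3 paralogs share the G and all have a purine before the start codon. Coding sequences were short, with a median of 582 bases against 1419 over the tested genes. Across the 70 mRNAs tested, coding length and the ratio of P over NP were related at a Spearman's rho of 0.18, against 0.14 over all tested genes. This is a description across genes, which share libraries and depth.

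Fewer mRNAs of the mitoribosome were listed in P than in NP, as was the case for genes as a whole. Above 0 FPKM, NP replicates 1, 2 and 3 listed 69, 76 and 69 of the 76 mRNAs, and P replicates 1, 2 and 3 listed 41, 61 and 53. The P count was 59.4%, 80.3% and 76.8% of the NP count of the same number, against 56.3%, 70.7% and 69.1% over all genes. Their summed level was 4705, 5299 and 5586 FPKM in NP and 1458, 909 and 2959 FPKM in P, so the fractions did not overlap. The FPKM of all genes together did not overlap either, at 597261 to 633110 in NP and 246182 to 393876 in P. As a share of all FPKM in the library, they made up 0.769%, 0.837% and 0.935% in NP and 0.427%, 0.369% and 0.751% in P. FPKM is relative to the library, so fewer molecules on polysomes and a smaller share among the RNA there cannot be told apart. In NP, 68 of the 76 mRNAs were above 0 in all 3 libraries. In P, 28 were above 0 in 3 libraries (40% of the 70 tested, against 44% of all tested genes), 27 in 2 and 17 in 1, and *Mrpl20*, *Mrpl30*, *Mrpl43* and *Mrpl52* were listed at 0 in all 3. For 24 mRNAs, more than 90% of the summed P level came from 1 library. The order of the 76 mRNAs by level was shared between NP libraries, with a Spearman's rho between 0.81 and 0.91, and less so between P libraries, with 0.27 to 0.39. Over all tested genes the ranges were 0.65 to 0.80 and 0.55 to 0.63.

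**Figure D1:**
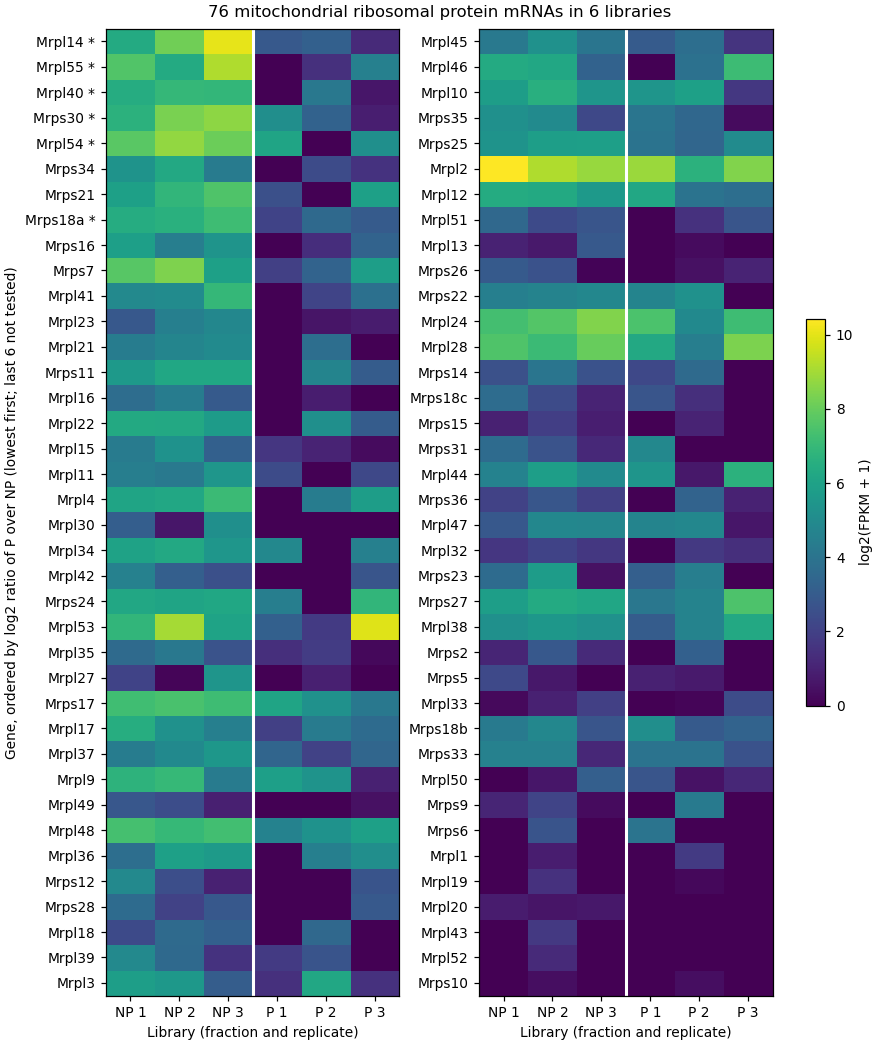
Level of each of the 76 mRNAs (rows) in the 6 libraries (columns) as log2(FPKM + 1), ordered by the log2 ratio of P over NP, with the 6 untested mRNAs last and asterisks on mRNAs past an adjusted p of 0.1. The 3 NP columns resemble each other, whereas the P columns hold many cells at 0, 35 of 76 in P replicate 1, and differ from one another.

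For 38 of the 76 mRNAs the values came out as whole reads in every library. Over these, the median was 52.5, 1212 and 494.5 reads in NP and 1, 16 and 6 reads in P. At most 3 reads were recorded for 28 of the 38 in P replicate 1, for 13 in replicate 2 and for 16 in replicate 3. In P replicate 1 most values therefore rested on few reads, and a value of 0 there is no more than a limit.

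To ask which of the mRNAs differed between the fractions, P was compared with NP using limma on log2(FPKM + 1), on which changes of low genes look smaller than they are, with Benjamini-Hochberg adjustment over all 10578 genes with a mean above 1 FPKM in either fraction. At an adjusted p of 0.1, 6 of the 70 mRNAs tested were lower in P, against 1.8% of all tested genes, and 0 were higher, against 0.0189%. With the replicate number as a block, which pairs the same-numbered NP and P libraries, 18 of the 70 were lower in P, among them all 6, against 6.27% of all tested genes, and 0 were higher. At an unadjusted p under 0.05 without the block, 24 of the 70 (34.3%) were lower, against 15.5%, and 0 higher. All 3 P values lay below all 3 NP values for 29 of the 70 (41.4%), against 23.2% of all tested genes, and above them for 0, against 0.633%. Some of these mRNAs had a mean above 1 FPKM in NP alone and so entered through the fraction where they are high. They were *Mrpl13*, *Mrpl16*, *Mrpl23*, *Mrpl30* and *Mrpl49* among the 29, *Mrpl16*, *Mrpl23* and *Mrpl30* among the 24, and *Mrpl16* and *Mrpl23* among the 18. The 6 had means above 1 FPKM in both fractions. Permuting 3 libraries against 3 exactly gives p = 0.1 for a gene at the lowest. The count of 6, from 192 genes in all, moved with single libraries: it was 0 without NP replicate 1 (4 genes in all) or NP replicate 3 (1 in all), 1, *Mrpl55*, without NP replicate 2 (12 in all), 5 without P replicate 1 (240) or P replicate 2 (156) and 14 without P replicate 3 (331). It was also 0 when the libraries were rescaled by median-of-ratios, by quantiles or to a common FPKM sum, which left 3, 5 and 7 genes in all, with 13 to 16 of these mRNAs at an unadjusted p under 0.05.

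*Mrpl14* (chromosome 17, 45686322 to 45698495, plus strand, GRCm38) encodes a conserved protein on the face of the large subunit that meets the small subunit. It was at 82.6, 286 and 1053 FPKM in NP replicates 1, 2 and 3 and at 6.43, 8.31 and 1.36 FPKM in P. The P values were all low, from 1, 9 and 2 reads, and the NP values spread widely. P over NP gave a log2 ratio of -5.75 (standard error, SE, 1.05; limma, Benjamini-Hochberg adjusted p = 0.0133), which is -4.72 after the median of all genes is taken off. Over the alternatives run, the ratio lay between -6.65 and -4.47 and the adjusted p between 0.00309 and 0.30. *Mrpl14* missed the threshold without any one of the NP replicates. Its exons share 106 bases with *Tmem63b* on the opposite strand, and whether the counting used strand is not given in the sources used here.

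*Mrpl55* (plus strand of chromosome 11, 59202486 to 59206134), another protein of the large subunit, was at 194, 81.9 and 578 FPKM in NP and at 0, 1.71 and 22.6 FPKM in P. All P values were below the lowest NP value, and P replicate 3 was the highest of them. The log2 ratio was -5.72 (SE 1.17; limma, Benjamini-Hochberg adjusted p = 0.0240). *Mrpl40* (chromosome 16, 18872018 to 18876767, minus strand) encodes a protein of the large subunit that bacteria lack. In NP it was at 86.5, 123 and 120 FPKM, a narrow range (mean ± SD of 110 ± 20.3, n = 3). In P it was at 0, 17.3 and 0.532 FPKM, and replicate 2 held nearly all of it. Its log2 ratio was -5.17 (SE 1.18; limma, Benjamini-Hochberg adjusted p = 0.0429). With 1 library left out the ratio lay between -6.47 and -4.37, and *Mrpl40* missed the threshold without any one of the NP replicates.

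*Mrps30* (chromosome 13, 118380110 to 118387252, minus strand) carries a small-subunit symbol, but its protein sits in the large subunit. It was at 102, 320 and 408 FPKM in NP and at 34.6, 8.82 and 0.812 FPKM in P. The highest P library was still below the lowest NP library, and 623 exon bases are shared with *B430218F22Rik* on the opposite strand. The log2 ratio was -4.80 (SE 1.07; limma, Benjamini-Hochberg adjusted p = 0.0416). With 1 library left out it lay between -5.82 and -3.67, and *Mrps30* missed the threshold without any one of the NP replicates. *Mrpl54* (chromosome 10, 81264713 to 81266934, minus strand), which bacteria lack, was at 214, 431 and 274 FPKM in NP and at 66.6, 0 and 36.0 FPKM in P. P replicate 2 was listed at 0, and the other P libraries were clearly above it, at 9 and 46 reads. The log2 ratio was -4.44 (SE 1.17; limma, Benjamini-Hochberg adjusted p = 0.0736), and -2.56 without P replicate 2. It was no longer past the threshold without that library or without any one of the NP replicates.

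**Figure D2:**
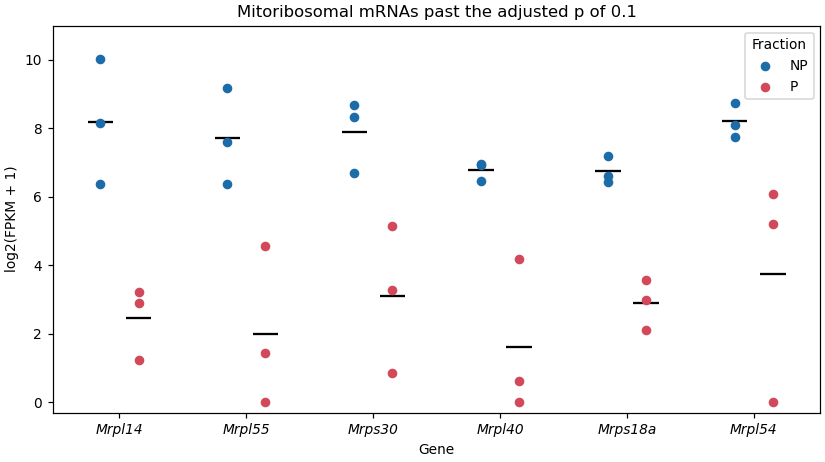
log2(FPKM + 1) of the 6 mRNAs that were lower in P, with 1 point per library (3 NP, 3 P) and the mean of each fraction as a line. In all 6 mRNAs each P point lies below each NP point, and the gap is narrowest for *Mrpl54* and *Mrps30*.

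The *Mrps18* genes are 3 paralogs of a single bacterial small-subunit gene, and their proteins take up different places: that of *Mrps18a* in the large subunit, those of *Mrps18b* and *Mrps18c* in the small subunit. *Mrps18a* (plus strand of chromosome 17, 46110986 to 46128910) was at 86.0, 96.0 and 145 FPKM in NP and at 3.31, 10.9 and 7.00 FPKM in P, from 2, 46 and 40 reads in P. Both fractions were compact and far apart, and the log2 ratio was -3.85 (SE 0.99; limma, Benjamini-Hochberg adjusted p = 0.0664). It missed the threshold without P replicate 1 and without any one of the NP replicates. *Mrps18b* was at 18.6, 27.6 and 5.64 FPKM in NP and at 35.1, 6.71 and 8.96 FPKM in P. Its fractions overlapped, with a log2 ratio of -0.14 (SE 1.14), and 638 of its exon bases are shared with the antisense *Gm16279*. *Mrps18c* was low, at 12, 4.21 and 1.07 FPKM in NP and 5.67, 1.63 and 0 FPKM in P, which were 1, 2 and 0 reads, and 250 of its exon bases are shared with *Gm43511* on the same strand. Its fractions overlapped too (log2 ratio -1.0, SE 1.23). Neither *Mrps18b* nor *Mrps18c* passed the threshold (limma, Benjamini-Hochberg adjusted p = 0.958 and 0.662). The difference between the paralogs was not tested.

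All 6 mRNAs past the threshold without the block encode proteins that sit in the large subunit. Placed by structure, with *Mrps18a* and *Mrps30* moved to the large subunit and *Mrps36*, a 2-oxoglutarate dehydrogenase component, set aside, 6 of 44 large-subunit and 0 of 25 small-subunit mRNAs tested were past it (limma), against 1.8% of all tested genes. With the block there were 13 (29.5%) and 5 (20%), against 6.27% of all tested genes, so small-subunit mRNAs were among them. At an unadjusted p under 0.05 and without the block there were 18 (40.9%) and 6 (24%), against 15.5%. *Mrpl16* and *Mrpl23* among the 13, and the same with *Mrpl30* among the 18, had passed the filter through NP alone. Placed by symbol, the counts were 4 of 42 and 2 of 28. The median log2 ratio was -1.97 for the large and -1.33 for the small subunit by structure. Over the 15 alternatives run, the large-subunit median was the lower by 0.55 to 1.47. These reuse the same genes and libraries, and no trend and the block cannot change a ratio, so they are no separate support. Non-overlapping lower values in P were found for 23 of 44 large-subunit mRNAs (52.3%) and 6 of 25 small-subunit mRNAs (24%), and with 23.2% of all tested genes the small subunit was at the background. Among the 23, *Mrpl13*, *Mrpl16*, *Mrpl23*, *Mrpl30* and *Mrpl49* had passed the filter through NP alone, whereas the 6 had means above 1 FPKM in P too. The difference between the subunits was not tested, and members of a subunit are not replicates. Summed over the 49 large-subunit mRNAs, NP held 3771, 4073 and 4805 FPKM and P 1178, 656 and 2450 FPKM. Summed over the 26 small-subunit mRNAs, NP held 931, 1221 and 778 FPKM and P 280, 244 and 508 FPKM. Neither sum overlapped between the fractions. As a share of all FPKM in the library, the large subunit did overlap, at 0.616%, 0.643% and 0.805% in NP and 0.345%, 0.266% and 0.622% in P, and the small subunit, at 0.152%, 0.193% and 0.130% in NP and 0.0819%, 0.0991% and 0.129% in P, was separated by little. Proteins with a bacterial counterpart (41 tested) had a median of -1.95 and 2 mRNAs past the threshold (4.88%), and proteins counted as found only in mitochondria (26 tested, *Mrps18b* among them) had -1.59 and 2 (7.69%). With the block the counts were 12 and 4, with *Mrpl16* and *Mrpl23*, which passed the filter through NP alone, among the 12. *Mrps18a* and *Mrps30*, both past the threshold, and *Mrps36* were placed in neither class.

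**Figure D3:**
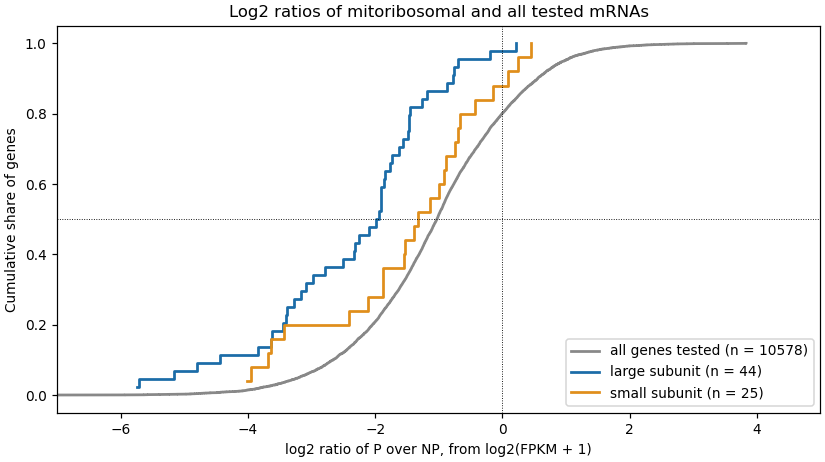
Cumulative share of mRNAs by log2 ratio of P over NP for the large subunit (44 mRNAs, placed by structure), the small subunit (25 mRNAs) and all 10578 tested genes. The dotted lines mark equal levels and the median, where the curves lie at -1.97, -1.33 and -1.03.

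Most ratios lay below 0, among these mRNAs and among all genes. The median log2 ratio over the 70 mRNAs was -1.87, against -1.03 over all tested genes, and 66 of the 70 (94.3%) had a ratio below 0, against 80.1% of all tested genes. Of the 70, 9 had passed the filter through NP alone, which favours a ratio below 0, and none through P alone, while 2569 and 563 of all tested genes had done so. Among those with a mean above 1 FPKM in both fractions, 57 of 61 (93.4%) and 79.2% of all genes had a ratio below 0. Of the 70, 52 lay below the median of all genes. Within the same-numbered libraries, the median was -2.07, -1.96 and -1.44 for replicates 1, 2 and 3, and that of all tested genes -1.29, -1.10 and -0.34. P was the lower value in all 3 of these comparisons for 44 mRNAs, in 2 for 21 and in 1 for 5, and in none of the 70 was it higher in all 3. The 44 make up 62.9%, against 38.6% of all tested genes lower in all 3, and 2.09% of all tested genes were higher in all 3. Among the 44, *Mrpl13*, *Mrpl16*, *Mrpl23*, *Mrpl30*, *Mrpl49* and *Mrps15* had passed the filter through NP alone. Rescaling moved the median of all genes from -1.03 to -0.37 (median-of-ratios), -0.14 (quantiles) and -0.43 (common sum), and the number of mitoribosomal mRNAs with a ratio above 0 from 4 to 11, 12 and 10. Below the shifted median lay 52 of 69, 56 of 70 and 51 of 71.

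By level, taken as the mean over the 6 libraries and so set in part by the NP values compared, the ratios were as follows. Among mRNAs with a mean of at most 5 FPKM over the 6 libraries, the 15 mitoribosomal mRNAs had a median log2 ratio of -0.83 and all tested genes -0.87. Between 5 and 20 FPKM the medians were -1.88 (21 mRNAs) and -1.23, and between 20 and 50 FPKM -2.0 (14 mRNAs) and -1.27. Between 50 and 100 FPKM they were -2.11 (11 mRNAs) and -1.28. Above 100 FPKM they were -3.65 (9 mRNAs) and -1.26. *Mrpl14*, *Mrpl54*, *Mrpl55*, *Mrps7* and *Mrps30* were in this last range only through NP, and its median is the ratio of *Mrps7* itself. Nothing is therefore read from their number there, from that median or from its place after the lower ranges. The rest of this range, *Mrpl53*, *Mrpl2*, *Mrpl24* and *Mrpl28*, had ratios of -2.34, -1.48, -1.26 and -1.18.

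**Figure D4:**
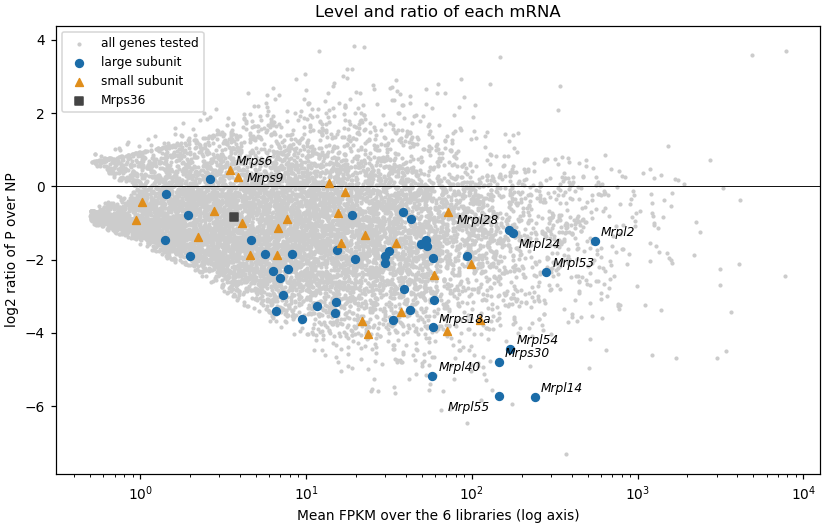
Log2 ratio of P over NP against the mean FPKM over the 6 libraries (log axis) for all tested genes (grey), large-subunit mRNAs (circles), small-subunit mRNAs (triangles) and *Mrps36* (square). The 6 mRNAs past the threshold have means above 50 FPKM, and *Mrpl2*, at the highest mean, has a ratio of -1.48.

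The most abundant mRNA of the group was not among those that differed. *Mrpl2*, which encodes a conserved protein next to the peptidyl transferase centre, was at 1378, 577 and 454 FPKM in NP and at 464, 103 and 347 FPKM in P, from 89, 137 and 629 reads in P. The fractions overlapped only through P replicate 1 and NP replicate 3. Its log2 ratio was -1.48 (SE 0.69; limma, Benjamini-Hochberg adjusted p = 0.30). It was -0.83 without P replicate 2 and -1.91 without P replicate 1. After rescaling by median-of-ratios, by quantiles or to a common sum it was -0.48, -0.55 and -0.55. *Mrpl24* was at 159, 198 and 347 FPKM in NP and at 176, 29.5 and 147 FPKM in P, and *Mrpl28* was at 185, 139 and 255 FPKM in NP and at 76.7, 21.3 and 328 FPKM in P. In both mRNAs P replicate 2 was the low library and the fractions overlapped, with log2 ratios of -1.26 and -1.18. Without P replicate 2 these were -0.46 and -0.24, and without P replicate 3 that of *Mrpl28* was -2.18. Of the exon bases of *Mrpl24*, 594 are shared with *Rrnad1* on the opposite strand.

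*Mrpl53*, a protein of the large subunit that bacteria lack, was at 114, 522 and 65.2 FPKM in NP and at 8.31, 2.38 and 979 FPKM in P. P replicate 3 held 98.9% of its P level and exceeded every NP library, while the other P libraries were below all of NP. With it the log2 ratio was -2.34 (SE 1.4), and without it -4.82, past the threshold. Of its exon bases, 88.0% are shared with *Gm42688* on the same strand, so its reads cannot be told apart from those of that gene.

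Among abundant small-subunit mRNAs, *Mrps7*, a conserved protein of the subunit's head, was at 208, 338 and 60.4 FPKM in NP and at 2.95, 8.88 and 55.8 FPKM in P. The fractions did not overlap, although P replicate 3 came close to NP replicate 3. Its log2 ratio was -3.65 (SE 1.06; limma, Benjamini-Hochberg adjusted p = 0.113). It passed the threshold with the block and, at a ratio of -4.71, without P replicate 3. *Mrps17* was even across NP, at 151, 174 and 143 FPKM, and lower in each P library, at 68.1, 37.2 and 16.9 FPKM. Its log2 ratio was -2.11 (SE 0.86; limma, Benjamini-Hochberg adjusted p = 0.241).

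At the other end, 4 mRNAs had a ratio above 0, and none by more than its standard error. *Mrps6* was at 0, 5.46 and 0 FPKM in NP and at 15.4, 0 and 0 FPKM in P (log2 ratio 0.45, SE 1.16), so 1 library in each fraction carried it, and part of its exons is shared with *Gm49711* and *Slc5a3* on the same strand. *Mrps9* was at 1.14, 3.39 and 0.233 FPKM in NP and, in P, at 18.5 FPKM in replicate 2 and 0 in the others (log2 ratio 0.25, SE 1.19). *Mrpl50* was at 0, 0.549 and 7.92 FPKM in NP and at 5.78, 0.414 and 1.22 FPKM in P, the last from 2, 1 and 4 reads (log2 ratio 0.21, SE 1.13). Only *Mrps33* of these 4 was above 5 FPKM in each P library, at 14.8, 14.9 and 5.22 FPKM against 22.9, 23.3 and 1.27 FPKM in NP (log2 ratio 0.08, SE 1.23). Each of these signs turned when a single library was left out, and their adjusted p lay between 0.857 and 0.978 (limma with Benjamini-Hochberg adjustment). *Mrps36* was at 3.17, 5.94 and 2.91 FPKM in NP and at 0, 8.94 and 1.01 FPKM in P, with overlapping fractions (log2 ratio -0.83, SE 1.22, and 0.27 after quantile normalization).

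Some mRNAs were listed at 0 in P or were too low to test. *Mrpl30* was at 7.80, 0.533 and 35.2 FPKM in NP and listed at 0 in all of P, where 3 reads would be worth 5.68, 0.815 and 0.600 FPKM. Its log2 ratio was -2.98 (SE 1.19; limma, Benjamini-Hochberg adjusted p = 0.236). It moved to -1.88 without NP replicate 3 and to -4.16 without NP replicate 2. *Mrpl1*, *Mrpl19*, *Mrpl20*, *Mrpl43*, *Mrpl52* and *Mrps10* had means of at most 1 FPKM in both fractions and were not tested. Their highest single value was 2.45 FPKM, for *Mrpl1* in P replicate 2, and apart from *Mrpl20* each was above 0 in a single NP library, replicate 2, the deepest.

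The remaining proteins of the mitoribosome carry other names, and all 7 of them tested had a ratio below 0, against 80.1% of all tested genes, with a median of -2.39. *Ict1*, listed under the older symbol of *Mrpl58*, is a large-subunit protein that can free stalled mitoribosomes by cutting the peptide from the tRNA. It was at 663, 896 and 1573 FPKM in NP and at 20.2, 54.2 and 459 FPKM in P. P was below NP throughout, with replicate 3 the closest, and *Ict1* was the only one of the 7 past the threshold, against 1.8% of all tested genes (log2 ratio -3.59, SE 0.86; limma, Benjamini-Hochberg adjusted p = 0.0543). It was no longer past it when NP replicate 1, 2 or 3 or P replicate 2 was left out. *Dap3*, a GTP-binding protein of the small subunit, was at 286, 174 and 60.4 FPKM in NP and reached 50.8, 48.8 and 59.3 FPKM in P, the most even P values of the 7. *Gadd45gip1*, at the exit of the large subunit's peptide tunnel, was at 128, 75 and 142 FPKM in NP and reached 29.4, 13.3 and 36.5 FPKM in P. Its fractions did not overlap (log2 ratio -2.14, SE 0.90; limma, Benjamini-Hochberg adjusted p = 0.260).

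The mitoribosome is built and served by factors that are not part of it. Of 24 assembly factors 21 were tested, with a median log2 ratio of -1.05, and of 15 translation factors 12 were tested, with a median of -1.31. None of either list was past the threshold in limma without the block, and 1 assembly and 2 translation factors were with it (4.76% and 16.7%, against 6.27%). At an unadjusted p under 0.05, 3 (14.3%) and 4 (33.3%) were lower, against 15.5% of all tested genes. P was lower in all 3 same-numbered comparisons for 28.6% and 66.7%, against 38.6%, and the difference of either list from the mitoribosomal mRNAs was not tested. *Mtif3*, a mitochondrial initiation factor, was at 166, 130 and 10.4 FPKM in NP and at 31.0, 110 and 91.0 FPKM in P, with a log2 ratio of 0.13 (SE 1.02). *Tufm*, the mitochondrial elongation factor Tu, was at 185, 81.5 and 177 FPKM in NP and at 24.1, 17.8 and 21.8 FPKM in P, without overlap (log2 ratio -2.66, SE 0.88; limma, Benjamini-Hochberg adjusted p = 0.161), and was past the threshold with the block. *Gfm1*, the elongation factor G that moves the ribosome along, was at 51.6, 46.9 and 16.2 FPKM in NP and reached 62.2, 13.5 and 2.05 FPKM in P, and its fractions overlapped. The 13 mRNAs that mitochondrial DNA encodes, the templates of the mitoribosome, were listed at 0 in every library, and why was not tested.

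The groups most like the mitoribosomal mRNAs were those of the cytosolic ribosome and of the nuclear-encoded respiratory chain. Of 78 cytosolic ribosomal mRNAs tested, 11 (14.1%) were lower in P and 0 higher, and the median ratio (log2) was -2.19. Of 75 respiratory chain mRNAs tested, 12 (16%) were lower and 0 higher, and the median was -1.94. Of the 70 mitoribosomal mRNAs, 6 (8.57%) were lower and 0 higher, with a median of -1.87, and of all tested genes 1.8% were lower. With the block, 27 (34.6%), 19 (25.3%) and 18 (25.7%) were lower in the cytosolic, respiratory chain and mitoribosomal groups, against 6.27% of all tested genes. The respiratory chain group was taken by symbol and also holds *Cox4nb*, which is no subunit, and differences between the 3 groups were not tested.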

How the data were processed

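The authors used Trim Galore 0.4.1 to trim reads and FastQC 0.11.5 to check them, used Hisat2 2.0.5 to align them to GRCm38 and deposited the FPKM of each gene, computed in Seqmonk. Not given in the sources used here are the release of the annotation, the filters on reads and whether strand was used. RNA had been depleted of rRNA and amplified by whole transcriptome amplification.

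Of 25965 rows, 66 rows of repeated symbols were dropped, keeping the highest mean. Genes whose mean exceeded 1 FPKM in P or NP entered a two-sided limma test (limma 3.58.1, R 4.3.3) of log2(FPKM + 1) in which the variance could depend on the level, with no replicate block. The block was an alternative: the labels number replicates 1 to 3 in both fractions and the methods pool each sample into NP and P, although none of the sources used here states outright that a number marks 1 sample. Across genes, library deviations from the mean of their fraction correlated at 0.063, 0.099 and 0.116 for the same number and at -0.089 to 0.021 otherwise. The threshold was a Benjamini-Hochberg adjusted p of 0.1. The script was tested on simulated data. Depth was estimated from FPKM steps with GENCODE M21 exon lengths, found for 87.4% of genes, counting reads within 0.02 as whole. Summaries used Python 3.11.15.

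The mRNAs and gene lists were chosen with earlier results of these data known. Named were the 10 highest by mean, those past the threshold, the 5 largest ratios in each direction, those at 0 in P or untested, the *Mrps18* paralogs, *Mrps30*, *Mrps36*, and in short lists those past the threshold or the 3 highest. The alternatives were other pseudocounts, filters, scalings and thresholds, no trend, the block, and each library left out.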

Additional observations from a re-analysis of the deposited data

How the results depend on the processing

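The calls depended on the setting. In the 6 mRNAs past the threshold all P values lay below all NP values. Without rescaling their sign could therefore not turn, and nothing is read from its staying below 0. A pseudocount of 0.1 in place of 1 gave 1 (69 genes in all). With no filter 0 passed (0 of 14482 genes in all), and with no trend 0 (15 in all). After rescaling by median-of-ratios, by quantiles or to a common sum 0 passed (3, 5 and 7 in all). In these 5 settings 24, 26, 15, 13 and 16 were at an unadjusted p under 0.05 (limma), where the share of all genes was not computed. A pseudocount of 5 (156 of 10578 genes in all) or a mean above 5 FPKM (210 of 7396) gave the same 6. An adjusted p of 0.05 gave 4 (65 in all), and leaving out 1 library gave 0 to 14 (1 to 331 in all). For the other genes of mitochondrial translation, 1 was past the threshold, and 0 were with a pseudocount of 0.1, no filter, no trend or any of the 3 rescalings (11, 8, 11, 4, 3 and 4 at an unadjusted p under 0.05), and 0 to 1 with 1 library left out.

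With the replicate block, 18 mitoribosomal mRNAs passed, among them all 6, against 6.27% of all tested genes lower in P, and 4 of the other genes in place of 1. *Mrpl16* and *Mrpl23*, among the 18, had entered the test through NP alone. Among the 20 named mRNAs it changed the call of *Mrps7* only.

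The median log2 ratio of the mRNAs, -1.87, became -2.65 and -1.22 with pseudocounts of 0.1 and 5, and -1.08, -0.96 and -1.13 after the 3 rescalings in the same order, below the median of all genes each time. Above 1 FPKM in place of 0, NP replicates 1, 2 and 3 listed 66, 67 and 62 mRNAs and P replicates 1, 2 and 3 listed 40, 50 and 44.

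Of 298 values for 20 named mRNAs, 220 had the same direction and call, 54 lost the call, 3 gained it and 21 reversed, none of the last past the threshold. *Mrps18b* became 0.79, 0.82 and 0.72 under the 3 rescalings in that order, *Mrps36* 0.27 under quantile normalization, *Mrps33* -0.098 with a pseudocount of 5 and *Mrps9* -0.98 with 0.1. With 1 library left out, *Mrps18b* ranged from -0.82 to 0.30, *Mrps33* from -1.05 to 0.66, *Mrpl50* from -0.44 to 1.15, *Mrps9* from -1.18 to 0.97 and *Mrps6* from -0.90 to 1.34. The causes were not tested. Depth limits what P shows for low mRNAs, above all in P replicate 1.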

Other observations

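The promoters of these genes were read as 300-base windows around the RefSeq start (GRCm38.p6), of which 73 were matched for 67 of the 76 genes. On both strands, CCGGAAG, a site of the GABP factor known for genes of mitochondrial function, was found for 24 genes (35.8%), against 20.8% of 7332 tested genes with a window and 41.7% of 60 cytosolic ribosomal genes. The motif of NRF1 was found for 12 genes (17.9%, against 12.1% and 8.33%), AAGATGG, those of YY1, for 13 (19.4%, against 8.66% and 15%), and TATAAA for 5 (7.46%, against 8.67% and 10%). AAGATGG also stands at the start codons of *Mrps18a* and *Mrps18b* shown above.

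A C followed by 4 pyrimidines right at the annotated start, the opening of the terminal oligopyrimidine tract of cytosolic ribosomal protein mRNAs, was found in 0 of the 73 windows, in 13 of 72 windows of cytosolic ribosomal genes and in 2.45% of windows of tested genes. The shares of motifs were not tested, and a match is a description of letters in a window.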
